A study of Rattus norvegicus with 6 samples.

Results

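The receptors for glutamate, GABA, acetylcholine, serotonin, dopamine and histamine were examined in mural cells of the rat cerebral cortex. Genes were taken by their symbols, which found 35 of the 14607 genes of the deposited table. Of these, 34 encode a receptor or a receptor subunit, and Grid2ip, which the symbol rule also takes in, encodes delphilin, a scaffold protein that binds a delta glutamate receptor. RNA had been sequenced from 3 samples of vascular smooth muscle cells (VSMCs) and 3 samples of mid-capillary pericytes (mcPCs), isolated from the brain cortex of male Sprague-Dawley rats aged 4-5 weeks in 3 independent isolations, each of which pooled the cortices of several rats. VSMCs had been sorted positively with a lectin from arterioles dissociated with harsh enzymes, after removal of CD31- and CD11b-labelled cells. mcPCs were the unlabelled cells left in the filtrate of a milder digestion after removal of cells labelled for CD31, CD11b, GLAST or O4, so cell type, digestion and direction of sorting cannot be told apart. The deposited table gives the authors' mean of each cell type, with no value per sample, and the results of the authors' own comparison that it also holds were not used. No spread between isolations and no test is therefore given here. The estimated reads sum to 62.0 M for each sample of VSMCs and 48.0 M for each of mcPCs (M, 1e+06 reads).

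Glutamate and GABA act on ionotropic receptors, which are channels built of several subunits, and on metabotropic receptors, which signal through G proteins. Nicotinic receptors are cation channels gated by acetylcholine, whereas muscarinic, dopamine and histamine receptors and nearly all serotonin receptors are coupled to G proteins. Mural cells lie close to the nearby neurons and the incoming subcortical fibres that release these transmitters. A channel subunit that cannot form a channel alone needs its partner, so partner genes with or without a row are given beside each class.

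Marker genes of both cell types were read first. Their lists were chosen with earlier results of these data known, so they are no independent check of identity. Of all 14607 genes, 13.9% were at least 2-fold higher in VSMCs and 22.0% in mcPCs. All 16 genes of a smooth muscle list were at least 2-fold higher in VSMCs, with Myh11 at a mean of 5085 transcripts per 1e+06 transcripts (TPM) in VSMCs and 4.60 TPM in mcPCs. The pericyte list had 15 rows, 10 past 2-fold towards mcPCs and 2 towards VSMCs. Among the 10 were the potassium channel gene Kcnj8 (17.2 and 346 TPM) and its partner Abcc9 (12.4 and 320.4 TPM). The 2 were Mcam (2120 and 275 TPM) and Notch3 (1198 and 137 TPM). Rgs5 and Cspg4 were among the 3 under 2-fold. Differences are given below as the log2 ratio of the authors' mean normalized counts, mcPC over VSMC. Beside it stands a 95% interval (exact conditional binomial, Clopper-Pearson) that covers counting error only, not the variation between isolations. A gene is called higher when the ratio is at least 2-fold. The 22 erythrocyte genes held 66.6% of the mcPC TPM and 0.876% of the VSMC TPM. The median log2 ratio of all listed genes was -1.79 on TPM and 0.01 on normalized counts. TPM was therefore used for levels within a cell type, and normalized counts for differences between them. In bulk samples fewer cells that express a gene and less RNA of it per cell cannot be told apart.

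Most of this receptor family was at a low level or without a row. RefSeq (GRCr8) names 91 protein-coding rat genes that fit the symbol rule and encode receptors or subunits, and 34 of them had a row. By the study's methods, rows are limited to genes with a read in each of the 6 samples. A gene read in mcPCs but missed in a VSMC sample, or the reverse, would have no row. Lack of a row therefore does not show that a gene was absent from either cell type. The lowest mean in the table was 0.935 estimated reads per mcPC sample, so the limit does not hold exactly for estimated reads. The 57 others, which missed that limit or were not matched by name or identifier, included 14 of 19 GABA-A subunit genes, 10 of 14 serotonin receptor genes, 9 of 16 nicotinic subunit genes, 4 of 5 muscarinic receptor genes and 5 of 7 NMDA subunit genes. A limit of 0.8 TPM, which the authors applied to VSMCs alone and which is used here for both cell types, was reached by 13 of the 35 genes in VSMCs, and by 8 in mcPCs. Of all listed genes, 83.6% reached that limit in VSMCs and 78.3% in mcPCs. Median abundance over the 35 genes came to 0.314 TPM (VSMC) and 0.231 TPM (mcPC), against 12.7 and 3.59 TPM over all listed genes. With erythrocyte genes removed and TPM brought back to its total, 16 of the 35 genes reached 0.8 TPM in mcPCs. This scaling raises every remaining mcPC gene by the same factor. The share of all listed genes reaching the limit on that scale is not given here, so the rise has no background.

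**Figure D1:**
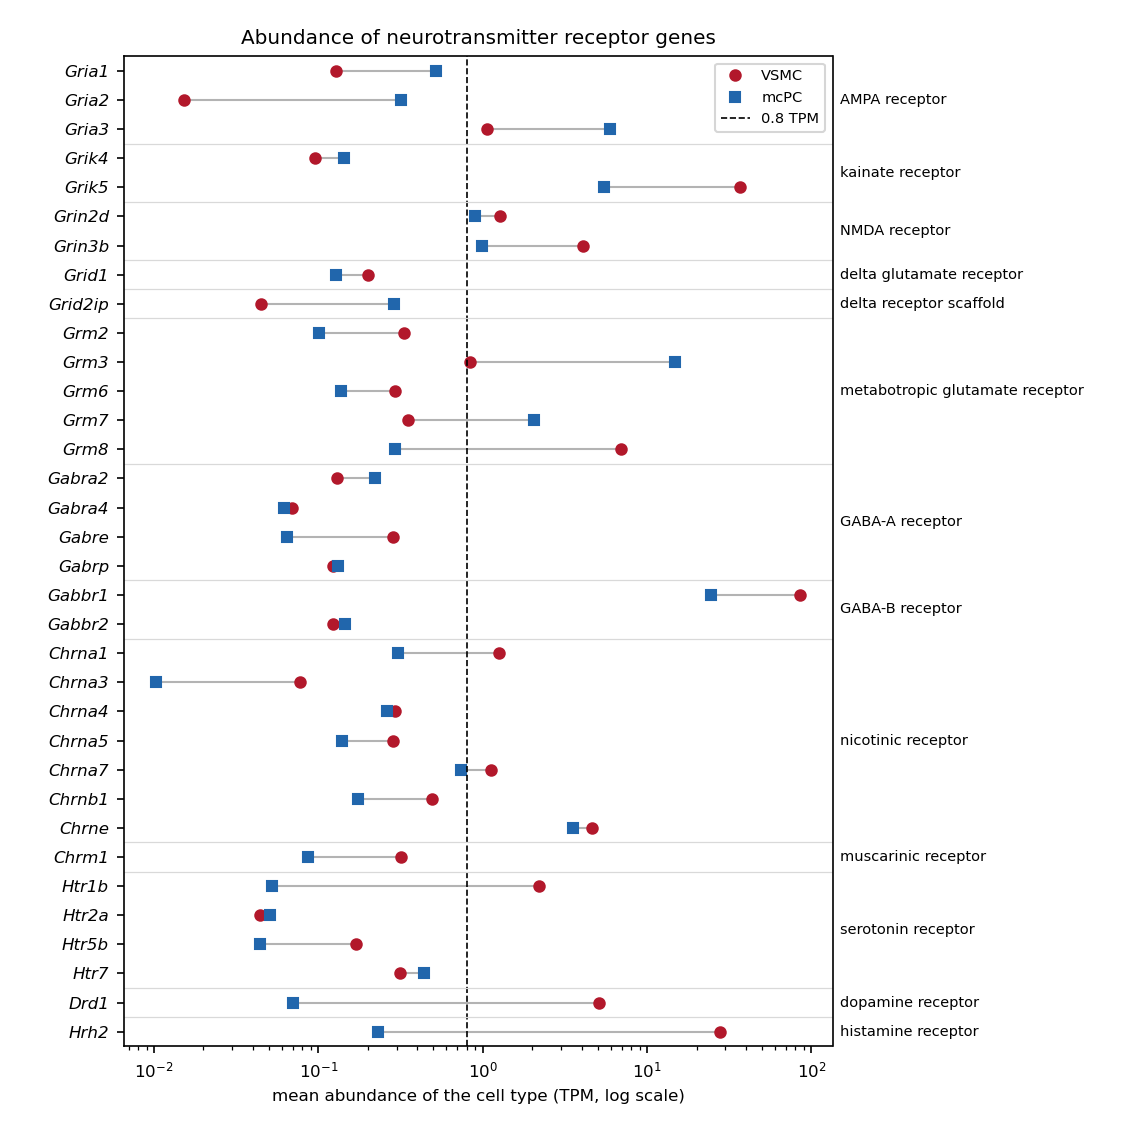
Mean abundance in TPM (log axis) of 34 of the 35 genes in VSMCs (red circles) and mcPCs (blue squares), grouped by receptor class, with the limit of 0.8 TPM as a dashed line. Gabbr1 is the highest in both cell types, with 85.6 and 24.6 TPM, and most genes lie left of the limit.

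Abundance was also summed by class, with the glutamate receptors kept apart as ionotropic and metabotropic. These sums are TPM as it stands, on which most genes are lower in mcPCs. GABA receptor genes summed to 86.4 TPM in VSMCs against 25.6 TPM in mcPCs, nearly all of it Gabbr1. Ionotropic glutamate receptor genes summed to 43.7 and 14.5 TPM, with Grik5 the most abundant in VSMCs and Gria3 in mcPCs. Metabotropic glutamate receptor genes summed to 8.73 TPM in VSMCs against 17.4 TPM in mcPCs, so that they held 4.78% of the receptor family's TPM in VSMCs and 27.2% in mcPCs. The single histamine receptor gene with a row held 15.1% in VSMCs and 0.362% in mcPCs. Acetylcholine receptor genes summed to 8.46 and 5.27 TPM, serotonin receptor genes to 2.74 and 0.589 TPM, and the only dopamine receptor gene with a row had 5.12 and 0.0698 TPM. Scaled without erythrocyte genes, acetylcholine receptor genes summed to 8.55 and 15.8 TPM, with the order of the cell types turned. On that scale GABA receptor genes summed to 87.4 and 76.8 TPM, ionotropic glutamate receptor genes to 44.1 and 43.4 TPM, and metabotropic glutamate receptor genes to 8.83 and 52.3 TPM.

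Between the cell types, 19 of the 35 genes had at least 2-fold more in mcPCs and 5 at least 2-fold higher in VSMCs, with 11 in between. The background was 22.0% of all listed genes past that limit towards mcPCs and 13.9% towards VSMCs. The median log2 ratio was 1.20 over the 35 genes and 0.01 over all listed genes. The share of genes higher in mcPCs depended on abundance in the whole table. Among genes with a mean TPM of both cell types under 0.8, 54.0% of all listed genes and 13 of the 22 receptor family genes were higher in mcPCs, so at low abundance the receptor genes lay near the background. In the other direction it was 7.72% of these listed genes and 1 of the 22. Among genes at or above that level, 16.1% of all listed genes were higher in mcPCs and 15.1% higher in VSMCs, against 6 and 4 of the 13 receptor genes. This split was chosen after the values were seen. The levels that set it also enter the ratio, so it is not independent of the difference. Split by the limit of 0.8 TPM in VSMCs, 5 of the 19 genes lay at or above it. Of the 13 receptor family genes there, 38.5% were higher in mcPCs and 30.8% in VSMCs. Of all listed genes there it was 13.1% and 15.8%. Below that limit, 14 of 22 receptor family genes (63.6%) and 67.4% of all listed genes were higher in mcPCs. On the ratio of TPM as it stands, a scale that lowers most genes in mcPCs, 7 of the 35 genes were higher in mcPCs and 16 higher in VSMCs. Of all listed genes, 8.17% were higher in mcPCs and 74.8% higher in VSMCs on that scale.

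**Figure D2:**
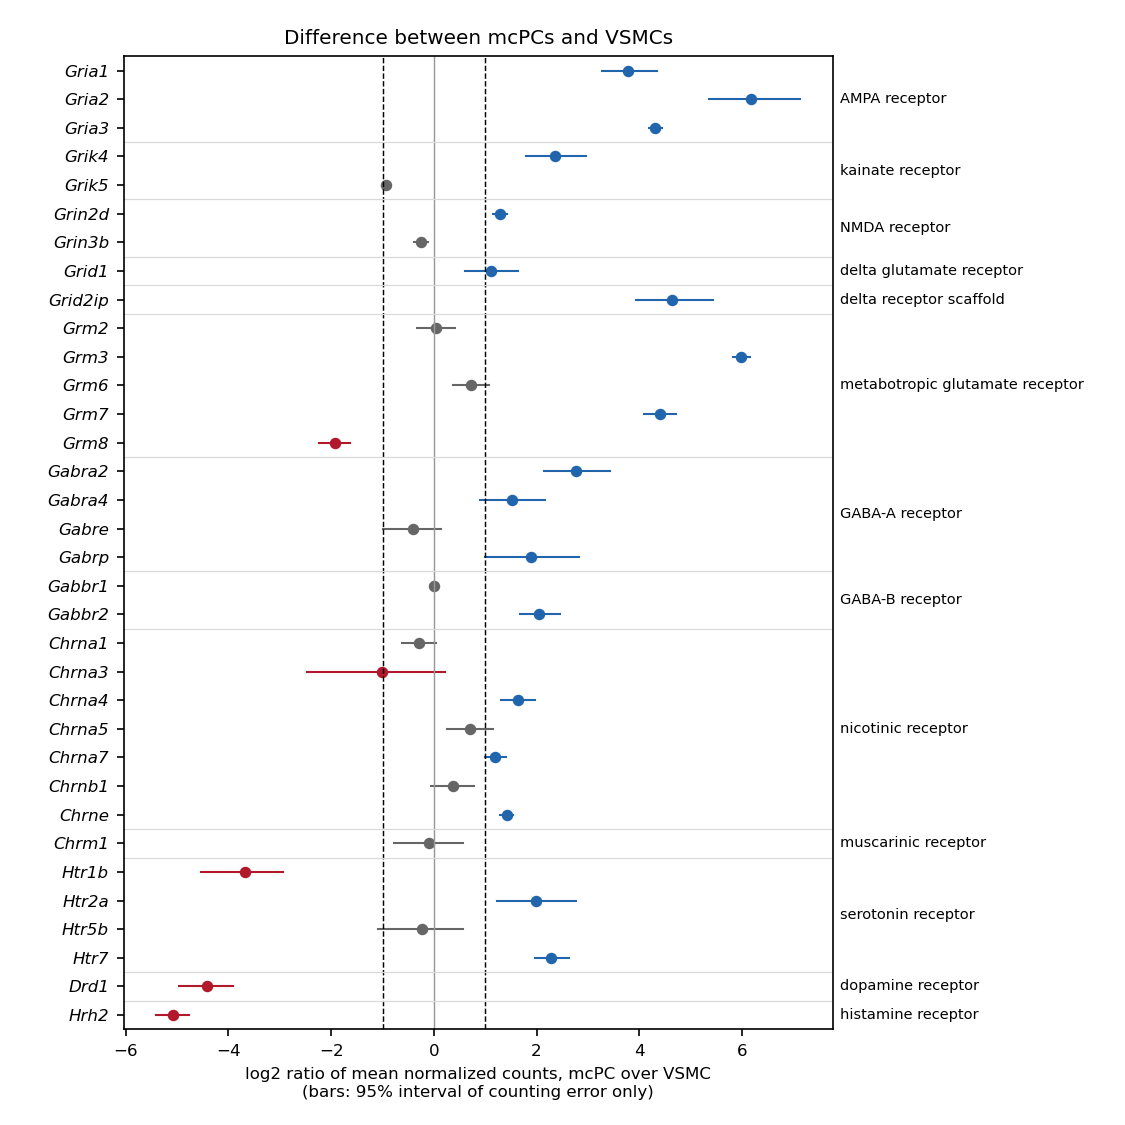
Log2 ratio of mean normalized counts, mcPC over VSMC, for 34 of the 35 genes; bars are 95% intervals of counting error only, dashed lines mark 2-fold, and colour marks genes at least 2-fold higher in mcPCs (blue), in VSMCs (red) or neither (grey). They run from -5.09 for Hrh2 to 6.17 for Gria2.

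**Figure D3:**
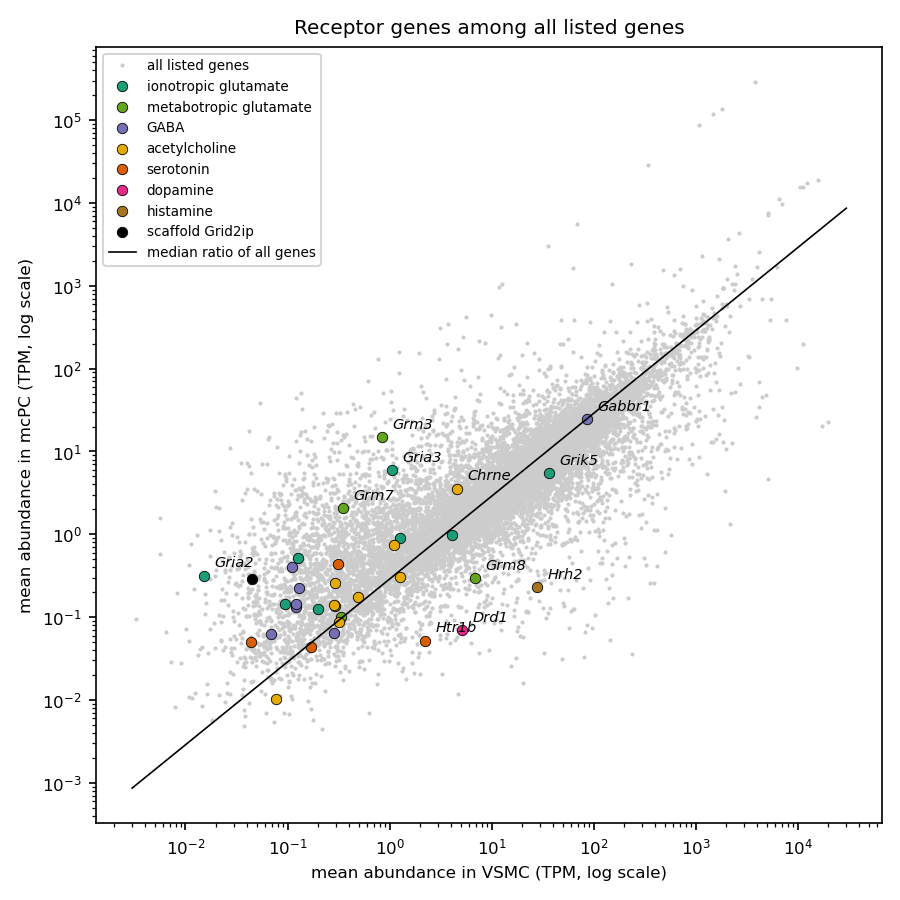
Mean TPM in VSMCs against mean TPM in mcPCs (both log axes) for all 14607 listed genes (grey) and the receptor genes (coloured by transmitter); the line marks the median ratio of all genes. Gabbr1 lies on the line, Grm3, Gria3 and Grm7 lie above it, and Hrh2, Drd1, Htr1b and Grm8 lie below it.

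Because the mcPC fraction was sorted negatively, markers of other cells were measured beside the receptor genes. Their counts stand against 22.0% of all listed genes higher in mcPCs and 13.9% higher in VSMCs. At a mean TPM of both cell types under 0.8, 54.0% of all listed genes were higher in mcPCs. Of 10 immature neuron genes with a row (18 in the list), 9 were at least 2-fold higher in mcPCs, and their TPM summed to 75.4 in VSMCs and 135.7 in mcPCs, with Stmn1 the most abundant in both, a microtubule regulator also found in other dividing cells. The exception was Dpysl3, at 33.0 and 4.28 TPM and higher in VSMCs. Stmn2, Dlx2 and Elavl4 were among the 8 without a row. Single marker genes named here were picked after their values were seen. Dcx, the migrating neuron protein doublecortin, had 0.0810 and 2.15 TPM, the neuronal tubulin gene Tubb3 0.131 and 15.7 TPM, and Dlx1, a transcription factor gene of GABA interneurons, 0.0420 and 6.68 TPM. Of 15 mature neuron genes 10 had a row, 7 of them at least 2-fold higher in mcPCs and 1, Nefm (9.04 and 0.187 TPM), in VSMCs, with sums of 58.3 and 20.3 TPM and Eno2 as the most abundant. Rbfox3, Syt1, Slc17a7, Stmn2 and Celf4 had no row. Oligodendrocyte precursor genes summed to 7.13 and 12.1 TPM, led by Cspg5, with 7 of 8 higher in mcPCs and no row for Sox10, Olig1, Gpr17 and Lhfpl3, and oligodendrocyte genes to 19.8 and 20.7 TPM, led by Cnp, with 6 of 7 higher in mcPCs. Astrocyte genes summed to 1757 and 638 TPM, led by Atp1b2 in both cell types, with 8 of 12 at least 2-fold higher in mcPCs and 2 in VSMCs, without a row for Slc1a2, Aldh1l1 and Gjb6. Those 2 were Ndrg2 (649.9 and 50.8 TPM) and Fgfr3 (13.0 and 1.11 TPM). The endfoot channel gene Aqp4 had 0.0539 and 0.0865 TPM with a log2 ratio of 2.44, and was among the 8 higher in mcPCs. Also among the 8 were Slc1a3 (0.306 and 12.7 TPM, log2 ratio 7.15) and Gja1 (0.125 and 2.68 TPM, log2 ratio 6.29). Microglia and leukocyte genes summed to 2.79 and 67.5 TPM, led by Fcer1g, with 9 of 9 higher in mcPCs, and Itgam (CD11b), Aif1 and P2ry12 had no row. Endothelial genes summed to 844 and 728 TPM, led by Esam in VSMCs and Itm2a in mcPCs, with 16 of 21 higher in mcPCs and no row for Pecam1 (CD31), and the fibroblast list, whose 11 rows hold 7 higher in mcPCs and 2 higher in VSMCs, both of the latter named Ogn, summed to 817 and 559 TPM, led by Col3a1 and Col6a1. On TPM scaled without erythrocyte genes the order of several of these sums turned. Endothelial genes then summed to 854 TPM for VSMCs and 2187 TPM for mcPCs, and fibroblast genes to 826 and 1677 TPM. Astrocyte genes summed to 1776 and 1917 TPM, and mature neuron genes to 59.0 and 60.9 TPM. Immature neuron genes summed to 76.3 and 407 TPM, oligodendrocyte precursor genes to 7.20 and 36.4 TPM, oligodendrocyte genes to 20.1 and 62.3 TPM, and microglia and leukocyte genes to 2.82 and 203 TPM. The part of these cells in the receptor values below was not tested.

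**Figure D4:**
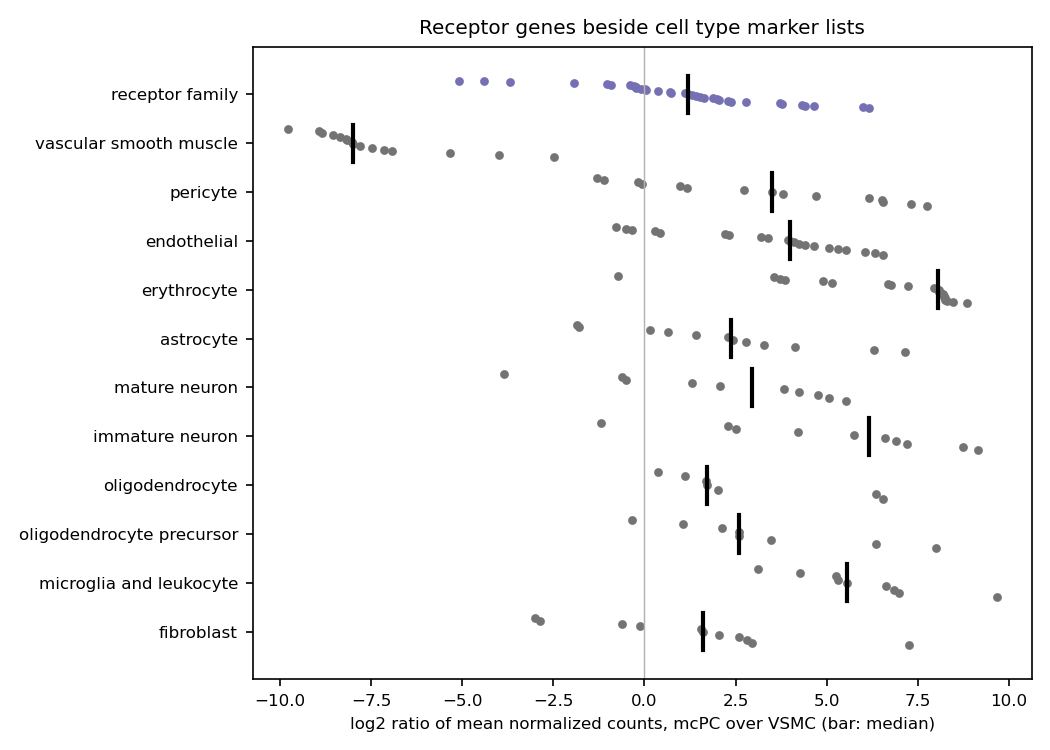
Log2 ratio of mean normalized counts, mcPC over VSMC, of the 35 receptor family genes (purple) and of the genes of each cell type list (grey); the bar is the median of a list. The receptor genes have a median of 1.20, the smooth muscle list -8.01 and the immature neuron list 6.17.

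GABA-B receptors join a GABBR1 subunit, which binds GABA, with a GABBR2 subunit, which couples to the G protein and brings the pair to the cell surface. Gabbr1 (ENSRNOG00000000774) was the most abundant gene of the family in both cell types, with 85.6 TPM in VSMCs against 24.6 TPM in mcPCs (8028 and 4457 reads per sample). That lay above 87.8% of the listed genes in VSMCs and 89.8% in mcPCs. Gabbr2 had 0.122 and 0.145 TPM, from 27.5 and 55.5 reads per sample. Gabbr1 was thus 701 times as abundant as its partner in VSMCs and 170 times in mcPCs. The log2 ratio between cell types was 0.01 for Gabbr1 (counting interval -0.02 to 0.04) and 2.06 for Gabbr2 (counting interval 1.67 to 2.46). On counts scaled without erythrocyte genes Gabbr1 had 0.25, and on TPM as it stands -1.80.

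Promoters are shown for the 2 receptor genes most abundant in VSMCs, Gabbr1 and Grik5, and for a receptor gene higher in VSMCs (Htr1b) and a receptor gene higher in mcPCs (Grm7), since their levels and differences contrast. Each is the 250 bases before the gene's start in RefSeq on GRCr8, which is another assembly than the Rnor_6.0 cDNA set behind the counts. Capitals mark the GC box letters GGGCGG, or the same on the other strand, CCGCCC, with overlapping matches counted singly.
Gabbr1, chr20:1499237-1499486, minus strand: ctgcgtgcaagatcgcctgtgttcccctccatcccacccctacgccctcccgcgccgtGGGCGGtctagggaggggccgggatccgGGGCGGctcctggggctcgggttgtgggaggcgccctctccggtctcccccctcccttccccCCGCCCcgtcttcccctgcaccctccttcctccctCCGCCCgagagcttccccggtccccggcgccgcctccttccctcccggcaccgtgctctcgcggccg
Grik5, chr1:89794910-89795159, minus strand: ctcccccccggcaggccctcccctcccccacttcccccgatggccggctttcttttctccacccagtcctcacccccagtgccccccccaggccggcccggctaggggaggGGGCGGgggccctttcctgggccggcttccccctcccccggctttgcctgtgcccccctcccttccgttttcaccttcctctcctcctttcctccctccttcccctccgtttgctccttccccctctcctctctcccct
Htr1b, chr8:91414816-91415065, minus strand: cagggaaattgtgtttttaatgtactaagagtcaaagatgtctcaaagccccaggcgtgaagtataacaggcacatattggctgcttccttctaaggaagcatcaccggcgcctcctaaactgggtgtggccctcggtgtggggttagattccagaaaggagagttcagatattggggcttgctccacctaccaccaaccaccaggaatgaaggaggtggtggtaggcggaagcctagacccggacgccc
Grm7, chr4:145286476-145286725, plus strand: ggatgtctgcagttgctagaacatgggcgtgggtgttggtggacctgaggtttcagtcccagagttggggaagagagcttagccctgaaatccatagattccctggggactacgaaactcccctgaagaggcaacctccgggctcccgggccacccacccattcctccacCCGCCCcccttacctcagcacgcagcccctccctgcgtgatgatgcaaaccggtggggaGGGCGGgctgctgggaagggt
The window of Gabbr1 held 4 such matches, that of Grm7 2, that of Grik5 1 and that of Htr1b 0. Guanine and cytosine made up 75.6% of the bases for Gabbr1, 70.8% for Grik5, 62.0% for Grm7 and 52.4% for Htr1b, against a median of 51.2% over all 33469 promoters of the table. A promoter was at hand for 23 of the 35 genes, and 13 of them (56.5%) held the letters, against 30.5% of all promoters. For the 23 genes the first listed start of each was taken, whereas all promoters include every listed start. This share, the median above and the share below are thus counted on unlike units. The CArG box, the element bound by serum response factor in smooth muscle genes, was found in 0 of the 23 and in 1.50% of all promoters. These matches are a description of letters and say nothing of binding.

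Among the ionotropic glutamate receptors, the kainate subunit gene Grik5 (ENSRNOG00000020310) was the most abundant in VSMCs and second to Gria3 in mcPCs. It had 36.8 TPM in VSMCs against 5.47 TPM in mcPCs (5242 and 1443 reads per sample), above 74.3% and 61.1% of the listed genes. Its product GluK5 binds kainate but forms channels only with GluK1 to GluK3, and the genes Grik1, Grik2 and Grik3 had no row. Grik4, which encodes the other subunit of that kind, had 0.0950 and 0.142 TPM. The log2 ratio of Grik5 was -0.93 (counting interval -0.98 to -0.88), just short of 2-fold, and on counts scaled to the same total it was -1.49 and passed it. Grik4 was higher in mcPCs by 2.37 (counting interval 1.80 to 2.96), from 12 and 32.7 reads per sample.

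AMPA receptors carry the fast excitatory current of central synapses, and their listed subunit genes all lay on the same side. All 3 listed genes, Gria1, Gria2 and Gria3, were higher in mcPCs, while Gria4 had no row. The background was 22.0% of all listed genes higher in mcPCs. At a mean TPM of both cell types under 0.8, where Gria1 and Gria2 lay, it was 54.0%. Gria3 (ENSRNOG00000007682) had 1.05 TPM in VSMCs against 5.99 TPM in mcPCs (204 and 2124 reads per sample), with a log2 ratio of 4.32 (counting interval 4.20 to 4.44). Gria1 had 0.128 and 0.520 TPM and a log2 ratio of 3.79. Gria2, whose edited product makes AMPA receptors nearly impermeable to calcium, had 0.0153 and 0.317 TPM and a log2 ratio of 6.17 (counting interval 5.36 to 7.14), from only 4.00 reads per VSMC sample and 151 reads per mcPC sample. Gria3 transcripts were thus 18.9 times as abundant as those of Gria2 in mcPCs. These ratios kept their sign and stayed at least 2-fold on the 6 scales tried, the lowest being 2.02 for Gria1 on TPM as it stands. Against normalized counts, the other scales moved the median gene by -1.81 to 0.17. Ratios this far from 0 could therefore hardly turn, and the scales say nothing of variation between isolations. Of the markers given above, 9 of 10 immature neuron genes and 7 of 8 oligodendrocyte precursor genes lay past 2-fold towards mcPCs. Dpysl3 (-1.18) and Matn4 (-0.35) were the exceptions. Of those 7 precursor genes, C1ql1, Neu4, Olig2 and Ptprz1 had a mean TPM under 0.8, where 54.0% of all listed genes were higher in mcPCs. Other lists leaned to mcPCs too, with 9 of 9 microglia and leukocyte, 16 of 21 endothelial and 10 of 15 pericyte genes. So did astrocyte (8 of 12), mature neuron (7 of 10), oligodendrocyte (6 of 7) and fibroblast (7 of 11) genes. Towards VSMCs lay 2 pericyte, 2 astrocyte, 1 mature neuron and 2 fibroblast genes, and all 16 smooth muscle genes. The part of any of these cells in the AMPA receptor values was not tested.

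NMDA receptors need the obligatory subunit GluN1, and its gene Grin1 had no row. The listed subunit genes were Grin2d, with 1.27 TPM in VSMCs against 0.895 TPM in mcPCs, and Grin3b, with 4.09 and 0.995 TPM from 486 and 218 reads per sample. Grin2d had a log2 ratio of 1.29 (counting interval 1.15 to 1.43), which was -0.51 on TPM as it stands. Grin3b had -0.25 (counting interval -0.38 to -0.11) and was under 2-fold. Of the delta receptor genes, Grid1 had 0.200 and 0.127 TPM and a log2 ratio of 1.12, whose counting interval of 0.61 to 1.63 crossed the 2-fold limit. The delphilin gene Grid2ip had 0.0446 and 0.290 TPM with a log2 ratio of 4.64.

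The metabotropic glutamate receptor genes split between the cell types. Grm3 and Grm8 encode receptors that lower cyclic AMP through Gi proteins, as do Grm2, Grm6 and Grm7. Grm3 (ENSRNOG00000005519) had 0.840 TPM in VSMCs against 14.8 TPM in mcPCs (106 and 3435 reads per sample), and in mcPCs it ranked above 83.1% of all listed genes. Its log2 ratio of 5.99 (counting interval 5.83 to 6.16) corresponds to 63.6-fold. Grm7 had 0.351 and 2.05 TPM and a log2 ratio of 4.40 (counting interval 4.10 to 4.71). In the other direction, Grm8 (ENSRNOG00000021468) had 6.92 and 0.295 TPM, from 500.3 and 33.3 reads per sample. Its log2 ratio was -1.93 (counting interval -2.24 to -1.64) on normalized counts, but -2.76 on TPM relative to the median gene and -2.81 on counts without erythrocyte genes. It was the only named receptor gene whose TPM ratio relative to the median gene lay outside its counting interval. Grm3 transcripts were 50.3 times as abundant as those of Grm8 in mcPCs, whereas in VSMCs the same quotient was 0.121. Grm2 and Grm6 stayed under 0.4 TPM in both cell types and under 2-fold. Grm4 and Grm5 had no row. Grm3 is also a gene of astrocytes and oligodendrocyte precursors, and the astrocyte list ran from a log2 ratio of -1.86 for Ndrg2 to 7.15 for Slc1a3. The part of such cells in the Grm3 values was not tested.

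GABA-A receptors are chloride channels that in most neurons combine alpha, beta and gamma subunits. None of the 5 listed genes reached 0.8 TPM in either cell type. Gabra2 had 0.131 and 0.222 TPM and a log2 ratio of 2.78 (counting interval 2.15 to 3.44). It rested on 9.86 reads per VSMC sample and 25.9 reads per mcPC sample. Gabra4 and Gabrp also had ratios over 2-fold, from at most 19.0 reads per sample, with counting intervals that reached the 2-fold limit or less. Gabre, with 0.286 and 0.0647 TPM, had a log2 ratio of -0.41.

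The acetylcholine receptor genes were listed as subunits of 2 kinds, those of muscle-type receptors and those of neuronal-type receptors. Of the muscle type, Chrne (ENSRNOG00000003777) had 4.62 TPM in VSMCs against 3.55 TPM in mcPCs (289 and 411 reads per sample), Chrna1 had 1.26 and 0.307 TPM, and Chrnb1 had 0.491 and 0.174 TPM. Chrnd and Chrng, for the delta and gamma subunits, had no row. The log2 ratio was 1.42 for Chrne (counting interval 1.29 to 1.54), -0.28 for Chrna1 (counting interval -0.62 to 0.05) and 0.37 for Chrnb1 (counting interval -0.05 to 0.79). Of the neuronal type, Chrna7, whose product forms receptors alone, had 1.12 and 0.742 TPM and a log2 ratio of 1.20 (counting interval 0.99 to 1.40). Chrna4 had 0.293 and 0.262 TPM and a log2 ratio of 1.64 (counting interval 1.31 to 1.97), and its usual partner Chrnb2 had no row. On TPM as it stands the ratios were -0.38 for Chrne, -0.59 for Chrna7 and -0.16 for Chrna4. Chrna5 had a log2 ratio of 0.70. Chrna3 had the lowest level of the family in mcPCs, with 0.0103 TPM from 2.33 reads per sample, and its log2 ratio of -1.02 had a counting interval of -2.46 to 0.22. The muscarinic receptors, through which acetylcholine contracts many smooth muscles, were represented by Chrm1 alone, with 0.319 and 0.0865 TPM and a log2 ratio of -0.09 (counting interval -0.78 to 0.56). Chrm2 and Chrm3 had no row.

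Receptors for the biogenic amines held the genes with the lowest ratios. Hrh2 (ENSRNOG00000018260), for the H2 receptor, which raises cyclic AMP in response to histamine, had 27.7 TPM in VSMCs against 0.231 TPM in mcPCs (1803 and 28.3 reads per sample). Its log2 ratio of -5.09 (counting interval -5.41 to -4.78) makes it 34.0-fold higher in VSMCs. It lay above 67.6% of the listed genes in VSMCs and above 9.84% in mcPCs. Hrh1, Hrh3 and Hrh4 had no row. Drd1 (ENSRNOG00000023688), for the D1 dopamine receptor, which also raises cyclic AMP, had 5.12 and 0.0698 TPM, from 415 and 11 reads per sample. It was 21.4-fold higher in VSMCs, with a log2 ratio of -4.42 (counting interval -4.96 to -3.92), and Drd2 to Drd5 had no row. Htr1b (ENSRNOG00000013042), for a serotonin receptor that lowers cyclic AMP and is a target of antimigraine triptans, had 2.21 and 0.0519 TPM, from 121 and 5.00 reads per sample. Its log2 ratio was -3.69 (counting interval -4.54 to -2.95), or 12.9-fold. On the 6 scales tried, the ratio nearest to 0 was -4.89 for Hrh2, -4.14 for Drd1 and -3.50 for Htr1b. The scales are built from the same means, so ratios of this size could hardly turn. Nor do the scales tell of variation between isolations.

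The other serotonin receptor genes were under 0.8 TPM in both cell types. Htr7, for a receptor that raises cyclic AMP, had 0.314 and 0.442 TPM and a log2 ratio of 2.29 (counting interval 1.97 to 2.62), from 36.2 and 92.4 reads per sample. Htr2a, for a receptor that mobilises calcium and contracts many arteries, had 0.0442 and 0.0508 TPM and a log2 ratio of 1.98 (counting interval 1.24 to 2.76), from 7.67 and 16.3 reads per sample. Htr5b had 0.170 and 0.0441 TPM and a log2 ratio of -0.23. Htr1d, Htr1f and Htr2b had no row. The 11 genes of the family that neither reached 0.8 TPM nor had a counting interval beyond 2-fold were Gabra4, Gabre, Gabrp, Grid1, Grm2, Grm6, Chrm1, Chrna3, Chrna5, Chrnb1 and Htr5b, and together they held 1.45% of the family's TPM in VSMCs and 1.69% in mcPCs.

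**Figure D5:**
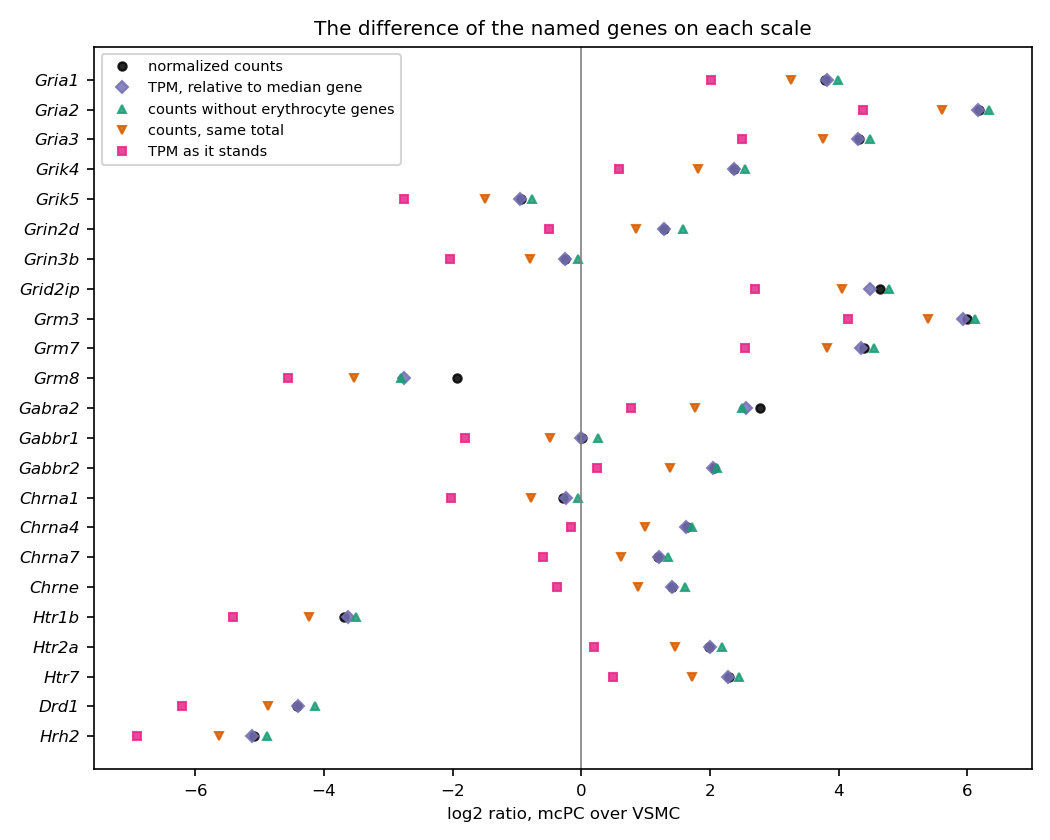
Log2 ratio, mcPC over VSMC, of 23 of the 24 named genes on 5 scales, the main being mean normalized counts (black circles). Hrh2, Drd1, Htr1b and Grm8 lie left of 0 and the AMPA receptor genes, Grm3 and Grm7 right of 0 on all 5 scales, while Grin2d, Chrna4, Chrna7 and Chrne change sign on TPM as it stands.

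Proteins that traffic or anchor these receptors were described from lists whose most abundant genes are named. The counts stand against 22.0% of all listed genes higher in mcPCs and 13.9% higher in VSMCs, and against 54.0% higher in mcPCs at a mean TPM under 0.8. Partner genes named for such a low level were picked after their values were seen. Of 17 listed partners of glutamate receptors, 3 were at least 2-fold higher in VSMCs and 6 in mcPCs, and of those 6 Cacng7, Cnih2, Dlg2 and Homer2 had a mean TPM under 0.8. Grip2, for a PDZ scaffold that binds AMPA receptor subunits, had 82.3 TPM in VSMCs against 0.0657 TPM in mcPCs, with a log2 ratio of -8.32 (counting interval -8.68 to -7.99). Dlg1 (SAP97) had 31.9 and 3.67 TPM with -1.33, and was higher in VSMCs, while Homer3 (30.4 and 7.89 TPM) and Dlg4 (28.2 and 6.90 TPM), for the scaffold PSD-95, were under 2-fold. Chosen after their values were seen, the AMPA receptor auxiliary genes Cacng4 and Cacng7 had 2.59 and 1.11 TPM in mcPCs, against 0.0668 and 0.0212 TPM in VSMCs, and Shisa6 had 7.60 TPM in VSMCs against 0.0374 TPM in mcPCs. Of 11 partners of GABA receptors, 4 were higher in mcPCs, with Lhfpl4 and Shisa7 of them at a mean TPM under 0.8, and 0 in VSMCs, and Gabarap (469 and 124 TPM), Gabarapl1 (118 and 38.4 TPM), Clptm1 (71.1 and 31.5 TPM) and Ubqln1 (65.5 and 12.9 TPM) were all under 2-fold. The genes Kctd8, Kctd12 and Kctd16, for auxiliary subunits of GABA-B receptors, had no row. Of 7 partners of acetylcholine receptors, 4 were higher in mcPCs and 0 in VSMCs, and of those 4 Lynx1, Rapsn and Ric3 had a mean TPM under 0.8. Agrn, for agrin, which clusters receptors at the muscle endplate and is a basement membrane protein of brain vessels, had 218 and 153 TPM with 1.31, Ly6e 146 and 48.8 TPM with 0.23, Lrp4 4.37 and 1.51 TPM with 0.28, and Rapsn, for the endplate scaffold rapsyn, 0.656 and 0.549 TPM with 1.40.

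Genes that remove or make the transmitters were counted in the same way. Of 14 listed genes of uptake and breakdown, 9 were at least 2-fold higher in mcPCs and 2 in VSMCs, against 22.0% and 13.9% of all listed genes. Of those 9, Bche, Maob and Slc29a4 had a mean TPM under 0.8, where 54.0% of all listed genes were higher in mcPCs. They were named after their values were seen. Slc6a13, for the GABA transporter GAT2, had 3.06 TPM in VSMCs against 132 TPM in mcPCs, with a log2 ratio of 7.26 (counting interval 7.16 to 7.37). Glul, for glutamine synthetase, had 289 and 214 TPM with 1.41. In the other direction, Aoc3, for a vascular amine oxidase, had 345 and 2.98 TPM with a log2 ratio of -5.14 (counting interval -5.19 to -5.08). Chosen after their values were seen, Slc6a4, for the serotonin transporter, had 4.56 and 0.0715 TPM with -4.12, and Slc1a3, for the glutamate transporter GLAST, 0.306 and 12.7 TPM with 7.15. Slc1a3 is also an astrocyte marker, Slc6a13 is on the fibroblast list and Glul on the astrocyte list, and GLAST was a target of the depleting antibodies. Of 10 listed genes of synthesis and vesicle loading, 8 were higher in mcPCs and 0 in VSMCs. Of those 8, Ddc, Gad2, Hdc, Slc17a8 and Slc32a1 had a mean TPM under 0.8, where 54.0% of all listed genes were higher in mcPCs, and they were named after their values were seen. Among the most abundant were Gls2 (6.56 and 1.02 TPM), which stayed under 2-fold, Gad1 (2.55 and 3.01 TPM, log2 ratio 2.06), for a GABA-making enzyme, and Slc18a2 (1.24 and 0.839 TPM, log2 ratio 1.26), for the vesicular monoamine transporter. Gad1 is also on the mature neuron list.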

How the data were processed

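Values per sample were not used, since the deposited table gives means of each cell type. Reads were trimmed and quality-filtered by the authors (Eoulsan). Salmon 0.8.0 then gave transcript TPM and counts against Ensembl cDNA of assembly Rnor_6.0, tximport added them up by gene, and DESeq2 scaled the counts. The deposited TPM values are the authors' means. The estimated counts deposited by the authors are means per sequencing run, since 73.5% (VSMC) and 74.7% (mcPC) of them were within 0.05 of a whole number of reads over 12 runs. They were multiplied by 4 runs for reads per sample and rounded over 12 runs for counting intervals. The normalized counts are signal values deposited as means, that is, counts divided by DESeq2's factors. The deposited effective lengths are the authors' means as well. The table's columns of the authors' own comparison (log2 fold change, its standard error, p-value, adjusted p-value) and the overall mean were not used.

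The test planned for counts per sample could not be run, and ratios of means with counting intervals took its place. Ratios were computed without a pseudocount. Named were all genes at or above 0.8 TPM in either cell type or with a counting interval wholly beyond 2-fold, and the 4 most abundant genes of each partner list. A few of these genes are not reported here. Receptor genes, lists and limits were chosen with earlier results of these data known. Sequences and gene names came from RefSeq (GRCr8). The computation was tested on simulated data. Computations used pandas 2.3.3 and scipy 1.17.1 with numpy 2.4.6 under Python 3.11.15, and matplotlib 3.10.9 drew the plots.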

Additional observations from a re-analysis of the deposited data

How the results depend on the processing

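Values rest on means of 3 samples per cell type, so no sample could be left out and DESeq2 could not be compared with edgeR. No paired analysis was possible because the columns carry means and no isolation. The median log2 ratio of all listed genes was 0.01 on normalized counts, -1.79 on TPM as it stands, -0.55 on counts brought to equal totals and 0.18 on counts without erythrocyte genes. The number of receptor family genes at least 2-fold higher in mcPCs, 19, was 7 on TPM as it stands, 11 at 4-fold, 5 among genes at or above 0.8 TPM in VSMCs and 6 among genes with a mean TPM of both cell types at or above 0.8, an alternative added after the data were seen. The number higher in VSMCs, 5, was 16 on TPM as it stands and 3 at 4-fold. The whole table moved the same way on TPM as it stands. There, 74.8% of its genes passed 2-fold towards VSMCs and 8.17% towards mcPCs, against 13.9% and 22.0% on normalized counts. Under the other scales, the filter on reads, a pseudocount of 1 and the counting interval the receptor family counts ran from 14 to 19 and from 4 to 6. On counts brought to equal totals they were 14 and 6, against 15.5% and 28.8% of all listed genes. On counts without erythrocyte genes they were 19 and 4, against 24.5% and 11.4%. By the counting interval they were 15 and 4, against 18.7% and 11.9%. Shares of all listed genes at 4-fold or under the filter on reads are not given here. Ratios of 6 genes past 2-fold changed sign, all on TPM as it stands: Grin2d (-0.51), Chrna4 (-0.16), Chrna7 (-0.59), Chrne (-0.38), Gabra4 (-0.15) and Grid1 (-0.65). Scaled relative to the median gene, TPM gave 23 of 24 named genes a ratio inside the counting interval, Grm8 being the exception. The number of genes reaching the TPM limit was 8 in VSMCs at 2 TPM, and 16 in mcPCs at 0.8 TPM after scaling without erythrocyte genes. That scaling raises every remaining mcPC gene by the same factor, and no share of all listed genes is given for it. On that scale the mcPC sums were 76.8 TPM for GABA, 43.4 for ionotropic and 52.3 for metabotropic glutamate, 15.8 for acetylcholine, 1.77 for serotonin, 0.694 for histamine and 0.210 for dopamine receptor genes. Depth limits genes with few reads, and the interval was widest for Chrna3 (-2.46 to 0.22).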

Other observations

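Relatives of these receptors outside the symbol rule were also measured. The glycine receptor subunit gene Glrb had 0.0557 TPM in VSMCs against 0.126 TPM in mcPCs, with a log2 ratio of 2.97. The listed orphan genes of class C, the class of G protein-coupled receptors that also holds the metabotropic glutamate and GABA-B receptors, were Gprc5a, Gprc5b and Gprc5c. Gprc5c had 197 and 32.1 TPM and a log2 ratio of -0.77, Gprc5a had 71.4 and 1.46 TPM and -3.84, and Gprc5b had 16.9 and 1.12 TPM and -2.08, so that Gprc5a and Gprc5b were at least 2-fold higher in VSMCs and Gprc5c was not on this scale.

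The effective length of a gene, an abundance-weighted mean over its transcripts, was more than 5% different between the cell types for 4 of the 35 receptor family genes and for 8.06% of all listed genes. In mcPCs it was lower by 14.6% for Gabra2, and higher by 5.37% for Gabbr1 and by 5.72% for Grin2d. Gabra2 rests on few reads. Which transcripts account for these lengths was not tested.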
